A study of Homo sapiens with 48 samples.

Results

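The zinc finger genes of human chromosome 19 were followed in DLD-1 cells in which a subunit of the CCR4-NOT complex carries a degron. They were taken as the protein-coding genes of GENCODE 29 on chromosome 19 that are named ZNF or ZFP with a number, together with HKR1 and without ZFP36 and ZNF296. That gave 250 genes among the 58721 gene identifiers of the deposited tables. A further 276 protein-coding genes with such names lie on other chromosomes and served for comparison. The choice used names and position only, not measured values.

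DLD-1 is a colorectal cancer cell line. The parental cells express TIR1, the plant F-box protein that sends a protein with an auxin-inducible degron to the proteasome once auxin is added, and so do the cells of both tagged lines, CNOT1-AID and CNOT4-AID. CNOT1 is the scaffold of CCR4-NOT, the main deadenylase of the cytoplasm, while CNOT4 is a RING-type ubiquitin ligase associated with the complex. Ribosome-depleted total RNA was sequenced in 24 steady-state libraries and 24 triptolide libraries, each set holding 12 groups of 2 libraries. In the steady-state set the 3 lines were left untreated or were given 1 mM auxin, for 8 or 24 h. In the triptolide set all 3 lines had 2 h of auxin and then 1 µM triptolide, which stops transcription, for 0, 3, 6 or 12 h, so that its 0 h libraries are auxin treated and its parental cells are the control without a degron. The labels do not say whether a tagged line is 1 clone, nor whether the libraries of a group came from separate cultures, so p-values measure only the spread between these libraries. Protein, on which a degron acts, is not part of these data. Bulk RNA cannot tell fewer cells that express a gene from less RNA in each cell.

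Most of these genes encode proteins with a KRAB domain and a tandem array of C2H2 zinc fingers. The fingers bind DNA, often in transposable elements, and the KRAB domain recruits TRIM28 and through it the histone methyltransferase SETDB1, which leads to silent chromatin. The genes arose by tandem duplication, lie in clusters along the chromosome, are themselves known to be covered by heterochromatin marks, and their mRNAs are known to be short lived. Near-identical neighbours share reads, so that low values of a copy are uncertain. Exons of 82 members overlap another gene on the same strand and those of 79 overlap one on the other strand, and the strand setting of the counting is not given in the sources used here.

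A steady-state value is given as TPM, the usual transcript share per library, which is scaled for transcript length, and a triptolide value as a raw read count. Markers of colon epithelium were present (9 of 10 averaged 1 TPM or more), and none of 4 fibroblast and 3 endothelial markers reached that level. Of 3 neural markers 2 did (TUBB3 at 73.8 TPM and MAP2 at 2.78 TPM), and of 4 blood markers 1 did (CD14 at 1.00 TPM). The mRNAs of the tagged genes do not check the loss of protein. In CNOT1-AID cells CNOT1 mRNA averaged 54.9 and 63.7 TPM untreated and 46.6 and 42.9 TPM after 8 and 24 h of auxin. In CNOT4-AID cells CNOT4 mRNA averaged 9.39 and 10.1 TPM untreated and 9.72 and 12.5 TPM after auxin. The triptolide libraries held 18216427 to 26723618 counts. Their ERCC spike-in share was 0.941% to 2.25%, except for 3.92% in CNOT4-AID 12 h replicate 2, and the parental 0 h pair agreed least, so results that rest on these libraries are also given without them.

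In untreated parental cells 162 members averaged 1 TPM or more, and in CNOT1-AID and CNOT4-AID cells 127 and 129 did. Of all 250, 62 lay under 0.1 TPM in all 3 lines, 13 more lay under it in 1 or 2 lines and reached 0.5 TPM in none, and 69 passed the filter of neither fit described below. The median member stood at 3.16 TPM in the parental line, 1.12 TPM in CNOT1-AID and 1.11 TPM in CNOT4-AID. The highest means belonged to ZNF146 (45.7, 38.8 and 28.2 TPM in the parental, CNOT1-AID and CNOT4-AID lines), a protein made almost only of zinc fingers, and to ZNF121 (40.6, 32.4 and 28.7 TPM) and ZNF544 (40.7, 30.3 and 25.3 TPM). ZNF787 (28.8, 28.5 and 23.1 TPM) and ZNF317 (24.6, 22.1 and 18.9 TPM) followed.

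A set of 20 loci was near silent in the tagged lines before any auxin was given. A locus was called near silent in a line where the mean of its 4 untreated steady-state libraries was under 0.1 TPM while the parental mean was at least 0.5 TPM. These values chose the loci and are given as a description. Of the 20, 16 were near silent in both tagged lines, 3 only in CNOT1-AID (ZNF433, ZNF577 and ZNF649) and 1 only in CNOT4-AID (ZNF493), and no member was near silent in the parental cells while a tagged line had 0.5 TPM. They made up 11.7% of the 171 members with at least 0.5 TPM in parental cells. Over all protein-coding genes at that parental level 0.255% were near silent in a tagged line, and over the zinc finger genes of other chromosomes 2 of 217 were (0.922%). Among the other protein-coding genes of chromosome 19 it was 2 of 671 (0.298%).

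By parental level the near-silent loci were ZNF493 (8.63 TPM), ZNF570 (6.66 TPM), ZNF793 (5.66 TPM), ZFP28 (5.21 TPM), ZNF100 (3.44 TPM), ZNF649 (3.28 TPM), ZNF577 (3.24 TPM) and ZFP82 (3.14 TPM). ZNF429 (2.46 TPM), ZNF430 (2.02 TPM), ZNF569 (1.83 TPM), ZNF470 (1.80 TPM), ZNF350 (1.67 TPM), ZNF790 (1.49 TPM), ZNF471 (1.27 TPM) and ZNF845 (1.21 TPM) came next. ZNF345 (1.00 TPM), ZNF433 (0.643 TPM), ZNF781 (0.605 TPM) and ZNF614 (0.583 TPM) were the lowest in parental cells. ZNF350 encodes a repressor known to bind BRCA1.

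To show these loci beside members that stayed on, the 250 bases before the RefSeq start of 5 genes are printed, with each CG in capitals, since CG is the pair that DNA methylation acts on. ZNF493, ZNF570 and ZNF793 are the near-silent loci with the highest parental level. ZNF416 and ZNF57 kept at least 0.7 of the parental level in both tagged lines and rose most with auxin in CNOT1-AID cells at 8 h. On GRCh38.p14 the stretches are chr19:21396883-21397132 (+) for ZNF493, chr19:37467522-37467771 (+) for ZNF570, chr19:37506689-37506938 (+) for ZNF793, chr19:57578912-57579161 (-) for ZNF416 and chr19:2900678-2900927 (+) for ZNF57.
ZNF493: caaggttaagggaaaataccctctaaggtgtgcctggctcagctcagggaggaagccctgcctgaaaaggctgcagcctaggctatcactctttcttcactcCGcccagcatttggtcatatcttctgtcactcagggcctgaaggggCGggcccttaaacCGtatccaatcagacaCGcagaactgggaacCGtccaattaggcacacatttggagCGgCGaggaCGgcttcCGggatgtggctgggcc
ZNF570: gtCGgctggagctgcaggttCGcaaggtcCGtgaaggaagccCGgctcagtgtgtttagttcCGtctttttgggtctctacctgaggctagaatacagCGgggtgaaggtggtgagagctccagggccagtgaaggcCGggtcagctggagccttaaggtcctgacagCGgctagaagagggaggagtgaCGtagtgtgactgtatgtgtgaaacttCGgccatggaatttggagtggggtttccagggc
ZNF793: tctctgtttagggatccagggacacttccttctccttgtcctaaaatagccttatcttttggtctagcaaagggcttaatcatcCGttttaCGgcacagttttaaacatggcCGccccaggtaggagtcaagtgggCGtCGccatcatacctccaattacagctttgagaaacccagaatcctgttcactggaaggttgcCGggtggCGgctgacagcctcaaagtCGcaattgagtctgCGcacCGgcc
ZNF416: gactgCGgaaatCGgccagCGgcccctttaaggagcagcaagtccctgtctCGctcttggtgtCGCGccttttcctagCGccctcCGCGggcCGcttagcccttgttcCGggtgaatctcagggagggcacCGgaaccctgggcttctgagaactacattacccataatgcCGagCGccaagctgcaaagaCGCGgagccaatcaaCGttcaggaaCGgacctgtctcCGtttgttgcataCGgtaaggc
ZNF57: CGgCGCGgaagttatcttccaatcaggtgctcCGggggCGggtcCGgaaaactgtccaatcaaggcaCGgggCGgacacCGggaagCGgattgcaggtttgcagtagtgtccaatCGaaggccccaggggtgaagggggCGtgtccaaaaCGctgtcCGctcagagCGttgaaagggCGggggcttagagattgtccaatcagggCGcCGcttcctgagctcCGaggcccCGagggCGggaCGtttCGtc
The printed stretches hold 9 CG in ZNF493, 10 in ZNF570, 10 in ZNF793, 20 in ZNF416 and 23 in ZNF57. GENCODE places the starts of ZNF570 (37467585) and ZNF493 (21397119) inside their stretches, whose later bases thus lie within the gene by GENCODE. Not all CG printed for ZNF570 therefore lie before its GENCODE start. RefSeq promoter windows, which add 50 bases after the start, were matched for 216 of 250 members. The median window held 17 CG over the 16 matched near-silent loci, 22 over the 138 matched members near silent in no line and 17 over the 51 matched members under 0.1 TPM in all 3 lines, and 14 over all 27305 windows. The ETS motif CCGGAAGT, searched on both strands, was in 1 of the 16 near-silent windows (6.25%), 33 of the 138 (23.9%), 10 of the 51 under 0.1 TPM in all 3 lines (19.6%) and 4.43% of all windows. The window of ZNF416 was among those with the motif, which does not lie within its printed bases, and the windows of the other printed genes were not. The TATA motif TATAAA was in 1, 3 and 0 windows of the 3 sets (12.0% of all windows), also on both strands. A match is a description of letters, and CG methylation was not measured.

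ZNF570 gave 6.96, 6.52, 6.98 and 6.17 TPM in the untreated parental libraries, 0 TPM in all 4 CNOT1-AID libraries and 0.01, 0.01, 0 and 0 TPM in the CNOT4-AID libraries. ZNF493 gave 7.09, 9.35, 10.2 and 7.91 TPM in parental, 0.2, 0.16, 0.14 and 0.1 TPM in CNOT1-AID and 0.09, 0.1, 0.03 and 0.04 TPM in CNOT4-AID libraries. No library of a tagged line came near a parental one at either locus. The limit of 0.1 TPM cuts through a range rather than a gap: ZNF350 (0.0975 TPM) and ZNF433 (0.09 TPM) lay just inside it in CNOT1-AID cells, and ZNF14 (0.16 TPM in CNOT1-AID) and ZNF418 (0.185 TPM in CNOT4-AID) just outside. ZNF493 itself was at 0.15 TPM in CNOT1-AID cells. With a limit of 0.05 TPM 12 loci remained near silent in CNOT1-AID in place of 19, and 15 in CNOT4-AID in place of 17.

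**Figure D1:**
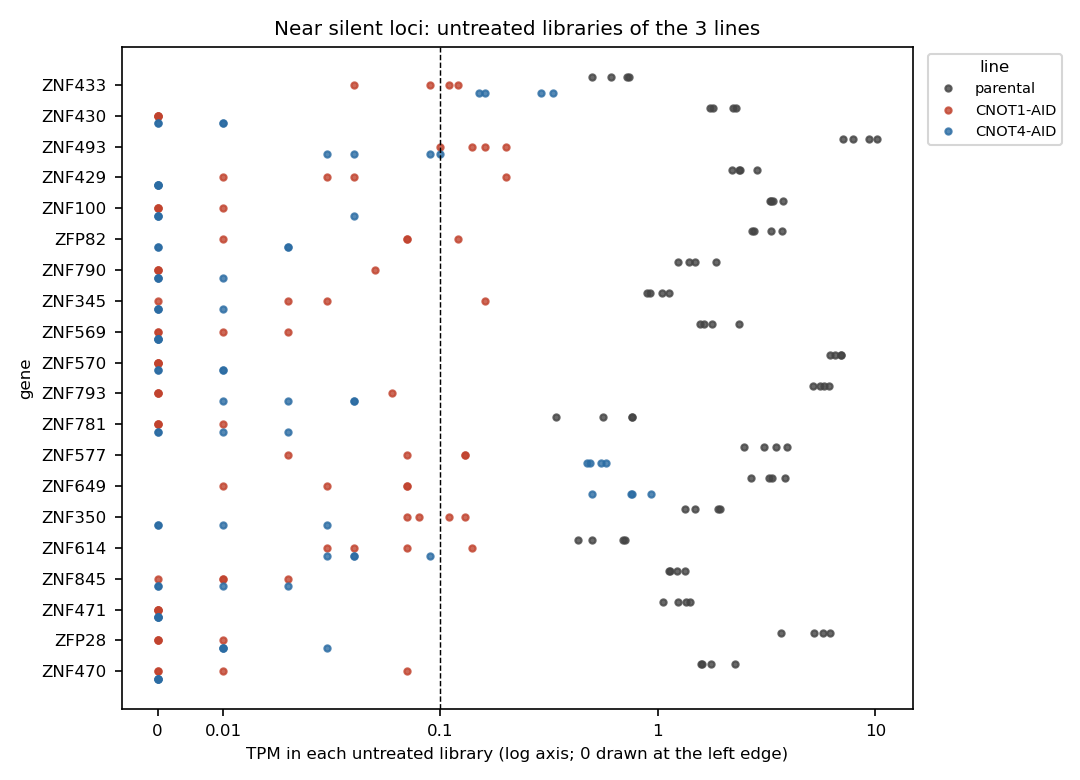
TPM of the 20 near-silent loci (rows) in each of the 4 untreated steady-state libraries of the parental, CNOT1-AID and CNOT4-AID lines, on a log axis with 0 drawn at the left edge and a dashed line at 0.1 TPM. The parental points lie to the right of the tagged lines' points, and ZNF577 and ZNF649 keep an intermediate level in CNOT4-AID cells, with means of 0.523 and 0.735 TPM.

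These loci stayed low with auxin. Their median level was then 1.89 TPM in parental, 0.0238 TPM in CNOT1-AID and 0.0075 TPM in CNOT4-AID cells, against 1.92, 0.0175 and 0.00875 TPM untreated. With auxin the mean stayed under 0.1 TPM for 17 of the 20 in each tagged line. The highest single auxin library was 0.57 TPM in CNOT1-AID (ZNF433) and 1.03 TPM in CNOT4-AID (ZNF577). Most of these values lie far under the pseudocount of 0.5 TPM, so a test of auxin on them would say little and none is given.

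The 0 h triptolide libraries took no part in choosing the loci, but the 20 loci passed the count filter there through the parental libraries. All 20 stood lower there in each tagged line than in parental cells. This direction was set beforehand, so the counts are given as a description, with no p. ZNF570 had 346 and 653 counts in the parental 0 h libraries and 0 in both libraries of each tagged line. That is at least 329-fold lower in CNOT1-AID and at least 345.1-fold lower in CNOT4-AID, where the bound takes 3 counts over the group. ZNF493 had 344 and 681 counts in parental, 0 and 0 in CNOT1-AID (at least 337.5-fold lower) and 0 and 2 in CNOT4-AID cells. ZFP28 had 170 and 295 parental counts and 0 in all 4 libraries of the tagged lines, at least 153.1-fold and 160.6-fold lower. Over the 20 loci the parental 0 h counts ran from 15 to 681. In CNOT1-AID 12 loci and in CNOT4-AID 14 loci had 0 counts in both 0 h libraries, and 7 and 8 had 0 in all 8 triptolide libraries of the line.

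ZNF577 and ZNF649, which overlap on the same strand, kept some counts in CNOT4-AID cells. The difference between the tagged lines was not tested. ZNF649 had 188 and 315 counts in parental, 0 and 0 in CNOT1-AID (at least 165.6-fold lower) and 12 and 5 in CNOT4-AID cells (30.7-fold lower). ZNF577 had 224 and 266, then 1 and 0, then 3 and 2 counts (102-fold lower in CNOT4-AID). ZNF714, ZNF431 and ZNF708, picked after their values were seen, lay outside the 0.1 TPM limit. At 0 h ZNF714 had 740 and 1662 counts in parental, 0 and 1 in CNOT1-AID and 312 and 204 in CNOT4-AID cells. ZNF431 had 897 and 1783, then 1 and 0, then 152 and 109 counts. ZNF708 had 377 and 773, then 3 and 1, then 93 and 75 counts. Among the near-silent loci ZNF433 was the weakest case. It had 15 and 41 parental counts against 1 and 3 in CNOT1-AID (13.8-fold lower) and 1 and 1 in CNOT4-AID. With single libraries left out its log2 difference in CNOT1-AID ran from -4.57 to -2.92.

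The near-silent loci lay in 5 of 16 clusters. Split where 1 Mb or more separates neighbours, the 250 members fall into 16 clusters, and 13 of the 20 near-silent loci had another one as the next member. The cluster of ZNF570 (36182060 to 37817300, GRCh38) held 7 of them among 30 members: ZFP82, ZNF790, ZNF345, ZNF569, ZNF570, ZNF793 and ZNF781. The cluster of ZNF430, ZNF493, ZNF429 and ZNF100 (19668796 to 24129961) held 4 among 37, 21 of which were under 0.1 TPM in all lines. The cluster of ZNF577, ZNF649, ZNF350, ZNF614 and ZNF845 held 5 among 39, and that of ZNF471, ZFP28 and ZNF470, near the end of the long arm, 3 among 60. ZNF433 was alone among 25, and the 23 members of the cluster that holds ZNF230, ZNF222 and ZNF223 included none.

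Some of the starts lie close together. By GENCODE coordinates ZNF570 starts at 37467585 on the plus strand, inside ZNF569 on the minus strand (37411155 to 37469275). By the same coordinates ZNF345 starts at 36850361 on the plus strand, inside ZNF790 on the minus strand (36817428 to 36850787). All 4 genes were near silent in both tagged lines.

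Beyond the near-silent loci, lower levels in the tagged lines were common among members. In the steady-state fit, made with limma on log2(TPM + 0.5) after TMM scaling and adjusted over 14921 genes, 167 members passed the filter of 1 TPM in 2 libraries. In CNOT1-AID cells 120 of the 167 were lower than in parental cells and 2 were higher, where 10.6% of all genes were lower and 10.1% higher. In CNOT4-AID cells 120 were lower and 3 higher, where the shares over all genes were 9.74% and 10.5%. The median member differed by -0.52 and -0.48. The 2 comparisons share the parental libraries. Since 18 of the 167 members reached 1 TPM only in parental libraries and so had to differ, the 133 members with 1 TPM in 2 libraries of every line were also counted, and 89 were lower in each tagged line. The share of all genes lower under that filter is not given, so the 89 are not read as particular to the members. Without the near-silent loci 103 of 150 were lower in each line. Off chromosome 19, 63 and 65 of 216 zinc finger genes were lower and 8 and 5 higher, with medians of -0.11 and -0.13.

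The call depends on the scaling to some degree. With ERCC scaling 107 and 92 members were lower, where 5.78% and 3.33% of all genes were lower and 3.03% and 11.1% higher. With TPM left unscaled the median gene in CNOT4-AID cells moved by -0.24, 56.3% of all genes were lower and 147 members were lower. Under 0.1 of the parental level were 27 members in CNOT1-AID and 23 in CNOT4-AID, 21 of them in both, and none lay the other way. Over all protein-coding genes those shares were 0.289% and 0.229%.

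ZNF540, ZFP30, HKR1 and ZNF571 lie in the cluster of ZNF570, were abundant in parental cells and were far lower in both tagged lines without being near silent. ZNF540 gave 20.4, 19.9, 19.2 and 16 TPM in parental, 0.08, 0.25, 0.13 and 0.39 TPM in CNOT1-AID and 0.19, 0.3, 0.17 and 0.35 TPM in CNOT4-AID cells, just above the near-silent limit. Its log2 difference was -4.74 ± 0.14 (SE, n = 4 libraries a line) in CNOT1-AID and -4.56 in CNOT4-AID. Since all its untreated tagged libraries lay under 1 TPM, ZNF540 passed the filter through its parental level and no p is given. The lines did not overlap. In the 0 h triptolide libraries ZNF540 had 486 and 962 parental counts, 3 and 2 in CNOT1-AID (258-fold lower) and 5 and 1 in CNOT4-AID cells (224-fold lower).

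HKR1 gave 15.9, 17.3, 17.4 and 17.7 TPM in parental, 0.72, 0.32, 0.37 and 0.61 TPM in CNOT1-AID and 1.37, 1.17, 2.01 and 2.08 TPM in CNOT4-AID cells. The CNOT4-AID libraries all lay above the CNOT1-AID ones and far under the parental ones. Its log2 difference in CNOT1-AID was -4.10 ± 0.14 (SE). In the 0 h triptolide libraries HKR1 had 505 and 584 parental counts, 1 and 3 in CNOT1-AID and 14 and 13 in CNOT4-AID (39.6-fold lower). ZNF571 gave 14.1, 14.1, 17.1 and 14.5 TPM in parental, 0.56, 0.91, 0.96 and 0.82 TPM in CNOT1-AID and 0.69, 0.59, 0.57 and 0.63 TPM in CNOT4-AID cells, with log2 differences of -3.53 and -3.61. Here the tagged lines stood at about the same low level.

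ZFP30, chosen after its values were seen, gave 27.5, 23.8, 26.7 and 22.0 TPM in parental, 1.06, 1.25, 1.47 and 1.66 TPM in CNOT1-AID and 1.82, 1.21, 1.2 and 1.46 TPM in CNOT4-AID cells. No tagged library came near a parental one. Its exons overlap those of ZNF781 on the same strand and of ZNF540 on the other, so the counts of these genes may not be fully separate. The log2 differences of ZFP30 were -3.75 and -3.52. With auxin at 8 h it rose to 7.35 and 6.14 TPM in CNOT1-AID cells (1.86 ± 0.14 SE), and in CNOT4-AID cells it stood at 1.06 and 1.36 TPM.

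**Figure D2:**
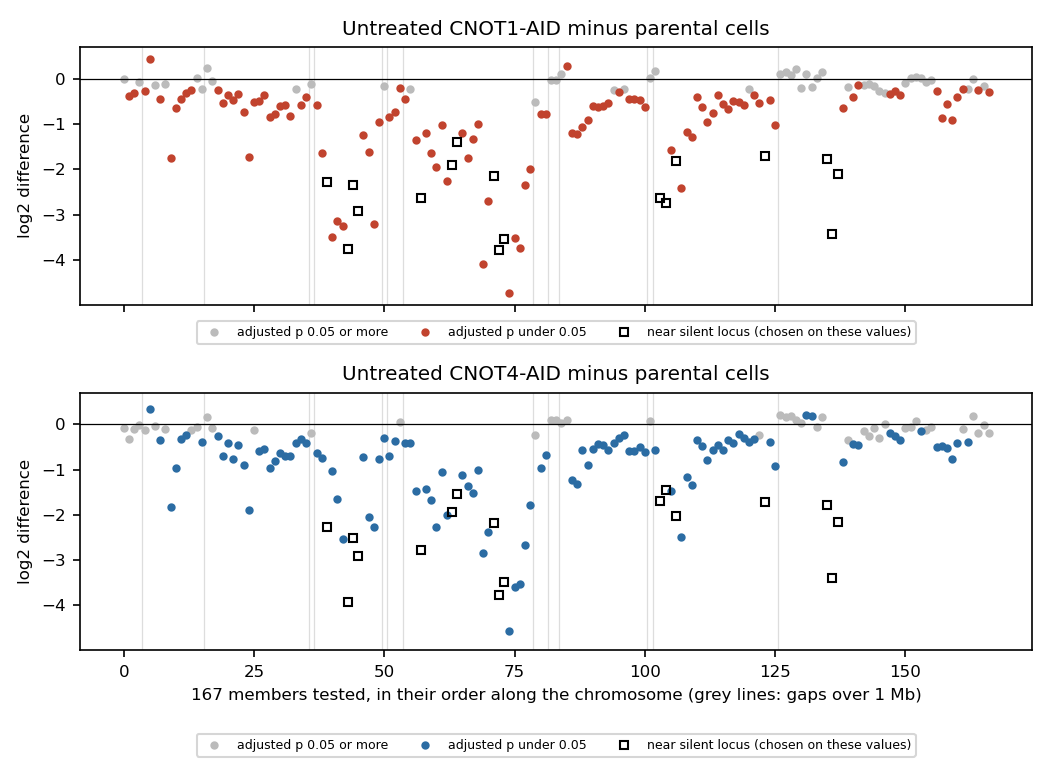
Log2 difference of each of the 167 tested members, untreated CNOT1-AID (top) and CNOT4-AID (bottom) minus parental cells, in chromosome order, with grey lines at gaps over 1 Mb and marks for adjusted p under 0.05 and for near-silent loci. The 25 tested members of the cluster of ZNF570 lie lowest as a block with that of ZNF493, and the last cluster lies near 0, with medians of -0.18 and -0.15.

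By cluster, the members near ZNF570 had a median of -1.95 in CNOT1-AID and -1.94 in CNOT4-AID cells, and 24 and 25 of 25 tested were lower. Near ZNF493 all 13 tested members were lower in both lines, with medians of -2.35 and -2.04. Without the near-silent loci those medians were -1.75 and -1.68 near ZNF570, and -1.63 and -1.04 near ZNF493. In the cluster of ZNF577 22 and 23 of 24 were lower (-0.64 and -0.57), and in that of ZNF230 13 and 15 of 17 (-0.52 and -0.53). In the last cluster, that of ZFP28 and ZNF416, 17 and 16 of 41 were lower. The differences thus ranged from small to large between clusters in both lines, against the same parental libraries.

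The few members that were higher in a tagged line were ZNF358 and ZNF428 in CNOT1-AID, and ZNF358, ZNF580 and ZNF581 in CNOT4-AID. ZNF358 gave 8.79, 8.06, 8.82 and 8.99 TPM in parental, 11.2, 10.1, 14.1 and 11.9 TPM in CNOT1-AID and 8.24, 8.6, 10.1 and 10.1 TPM in CNOT4-AID cells. All CNOT1-AID libraries lay above the parental ones, while the CNOT4-AID ones overlapped them. The log2 difference was 0.45 ± 0.07 (SE, limma adjusted p = 0.000368) in CNOT1-AID and 0.34 in CNOT4-AID, where it was 0.09 and not called without scaling. For ZNF580 and ZNF581 the calls in CNOT4-AID cells held with TMM or ERCC scaling and were lost without scaling. Neither call was kept throughout with single libraries left out, where the log2 differences ran from 0.14 to 0.27 and from 0.15 to 0.23. Their mean TPM ran the other way, 12.7 in parental and 12.3 in CNOT4-AID cells for ZNF580 and 16.6 and 15.8 for ZNF581. The log2 differences of ZNF580 and ZNF581 were 0.21 and 0.19 with TMM scaling and -0.05 and -0.07 without scaling. ZNF428, which encodes a single C2H2 finger by the pattern counted here, differed by 0.28 ± 0.08 (SE, limma adjusted p = 0.0252), a call lost with ERCC scaling (0.24) and without scaling (0.25). Nor was it kept throughout with single libraries left out (0.21 to 0.35).

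In the triptolide set at 0 h, which used other libraries of the same lines, 180 members passed the count filter. By edgeR with Benjamini-Hochberg adjustment 79 were lower and 16 higher in CNOT1-AID cells, where 4.84% and 9.65% of 16806 genes were. In CNOT4-AID cells 89 were lower and 1, ZNF552, was higher, where 4.09% and 7.88% of all genes were. The members' medians were -0.34 and -0.71. The 20 near-silent loci passed the filter through the parental libraries and had to be lower. Without them 59 of 160 were lower and 16 higher in CNOT1-AID (median -0.17), and 69 of 160 lower and 1 higher in CNOT4-AID (median -0.52). Across the 166 members tested in both sets the line differences in steady state and at 0 h had Pearson's r = 0.869 and Spearman's rho = 0.879 for CNOT1-AID, and 0.842 and 0.897 for CNOT4-AID. Members are not independent replicates, and the points share line and library depth. The members higher in CNOT1-AID cells after 2 h of auxin were led by ZNF57 (log2 difference 1.11, 2.16-fold), ZNF627 (0.93) and ZNF77 (0.90), none of which was higher in the untreated cells. The count of higher members was 5 and 6 without CNOT1-AID replicate 1 and 2, and 26 and 32 without parental replicate 1 and 2. Without parental replicate 1 or 2 the count higher in CNOT4-AID was 13 or 9.

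Most members rose with auxin in CNOT1-AID cells. At 8 h 132 of the 167 tested members rose and 3 fell, where 33.1% of all genes rose and 29.8% fell. At 24 h 119 rose and 11 fell, where the shares were 36.7% and 34.8%. The median member rose by 1.10 on the log2 scale at 8 h (2.14-fold) and by 0.84 at 24 h (1.79-fold). All 132 belonged to the 150 members not near silent, whose median was 1.20 at 8 h. Zinc finger genes of other chromosomes did likewise, with 176 of 216 higher and 9 lower at 8 h (median 0.98) and 163 higher and 20 lower at 24 h (0.87).

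The difference of this response from that of parental cells was tested itself. It was higher in CNOT1-AID cells for 127 members and lower for 3 at 8 h, where 27.0% and 23.2% of all genes were, and for 113 and 8 at 24 h, where 32.3% and 29.6% were. In parental cells no member was called with auxin at 8 h, where 0.0134% and 0.00670% of all genes rose and fell, or at 24 h, where none of all genes did (limma). At an unadjusted p under 0.05, 2 members rose and 2 fell in parental cells at 8 h, and 3 rose and 11 fell at 24 h. Over all 14921 genes these were 447 and 388 at 8 h, and 419 and 336 at 24 h. ERCC scaling moved the median gene of CNOT1-AID cells by 0.41 at 8 h and 0.32 at 24 h. With it, 142 members rose and 2 fell at 8 h, where 52.1% and 9.85% of all genes did, and 128 rose and 6 fell at 24 h, where 47.0% and 19.4% did.

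ZNF416, ZNF57, ZNF574 and ZNF30 rose most at 8 h. ZNF416 went from 3.42 and 3.27 TPM untreated to 34.4 and 34.1 TPM in CNOT1-AID cells, a log2 change of 2.89 ± 0.08 (SE, n = 2 libraries a group, 7.39-fold). In parental cells it was at 4.51 and 4.48 TPM untreated and 5.28 and 4.75 TPM with auxin, and in CNOT4-AID cells at 3.02 and 3.12, then 2.62 and 2.98 TPM. Only the CNOT1-AID libraries with auxin stood apart. At 24 h ZNF416 stood at 3.7 and 3.61 TPM untreated and 33.1 and 31.6 TPM with auxin in CNOT1-AID cells.

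ZNF574, with 18 fingers and the highest level among those that rose most, went from 13.9 and 14.5 to 121.1 and 131 TPM at 8 h (2.81 ± 0.05 SE, 7.01-fold) and from 14.2 and 13.2 to 154 and 155 TPM at 24 h (3.19 ± 0.05 SE, 9.11-fold). It was the member that rose most at 24 h. Its parental libraries lay between 13.7 and 15.8 TPM with and without auxin, and those of CNOT4-AID between 10.7 and 13.8 TPM. ZNF57 went from 3.83 and 4.89 to 41.8 and 41.4 TPM at 8 h (2.83 ± 0.11 SE, 7.12-fold), and from 5.15 and 5.13 to 22.6 and 19.4 TPM at 24 h. It was thus higher at 8 h than at 24 h, where ZNF574 was the reverse.

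ZNF30 went from 1.34 and 1.54 to 12.3 and 12.4 TPM at 8 h (2.45 ± 0.11 SE, 5.47-fold). At 24 h ZNF222 went from 1.2 and 1.04 to 9.33 and 10.9 TPM (2.45 ± 0.15 SE) and ZNF613 from 1.87 and 1.65 to 14.5 and 13.8 TPM (2.43 ± 0.16 SE). In each case both auxin libraries lay far above both untreated ones. The cluster of ZNF222 and ZNF230 had the highest median among the 5 clusters described, 1.61 at 8 h, and 16 of its 17 tested members rose. In the last cluster 33 of 41 rose and 1 fell (0.96), and near ZNF493 7 of 13 rose (0.34).

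Members that were low in untreated CNOT1-AID cells did not share 1 response. ZNF571 rose from 0.56 and 0.91 to 5.51 and 5.96 TPM at 8 h (2.09 ± 0.16 SE, 4.26-fold) and from 0.96 and 0.82 to 4.16 and 3.47 TPM at 24 h. In CNOT4-AID cells it stood at 0.57 to 1.07 TPM in all 8 libraries, and even after the rise in CNOT1-AID it stayed under every parental library, the lowest of which had 13.2 TPM. ZNF540 had 1.21 and 0.75 TPM with auxin at 8 h against 0.08 and 0.25 TPM untreated (0.98), and at 24 h 0.2 and 0.17 TPM against 0.13 and 0.39 TPM. HKR1 had 1.03 and 1.12 TPM with auxin at 24 h against 0.37 and 0.61 TPM (0.50, limma adjusted p = 0.0286). These levels lie near the pseudocount of 0.5 TPM. With single libraries left out the HKR1 change ran from 0.31 to 0.69, and the call was not kept throughout.

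**Figure D3:**
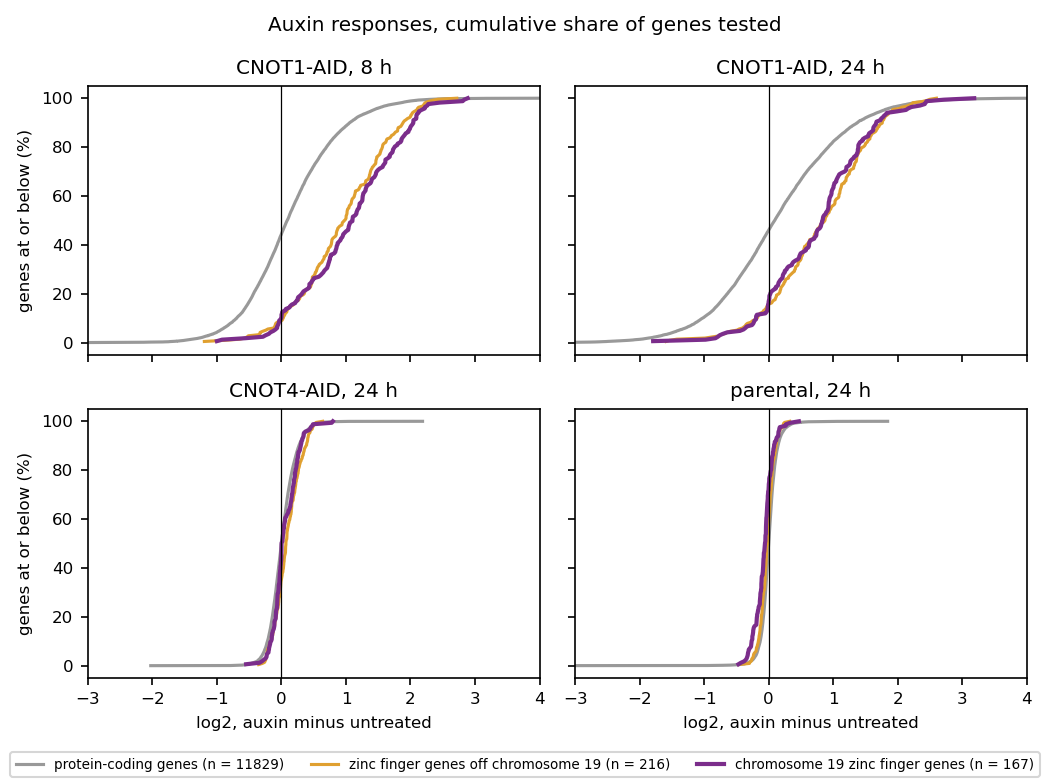
Cumulative share of tested genes (y axis, percent) by log2 change with auxin (x axis) in CNOT1-AID cells at 8 and 24 h and in CNOT4-AID and parental cells at 24 h, for the 167 members, 216 zinc finger genes of other chromosomes and all tested protein-coding genes. In CNOT1-AID cells both zinc finger curves lie to the right of the protein-coding curve, with member medians of 1.10 and 0.84, and in the other panels the curves lie near 0.

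A few members fell in CNOT1-AID cells with auxin. At 8 h these were ZNF69, ZNF358 and ZNF524. ZNF358, higher in untreated CNOT1-AID cells, went from 11.2 and 10.1 to 6.76 and 6.46 TPM at 8 h (fell by 0.92 ± 0.10 SE on the log2 scale) and from 14.1 and 11.9 to 4.34 and 3.77 TPM at 24 h (fell by 1.79 ± 0.10 SE). ZNF69 went from 2.67 and 4.29 to 1.7 and 1.86 TPM at 8 h (fell by 1.00 ± 0.16 SE), and ZNF524, which encodes 4 fingers, from 9.12 and 8.39 to 6.86 and 7.32 TPM (-0.56 ± 0.10 SE), a call lost with ERCC scaling (-0.13). At 24 h ZNF428 went from 11.8 and 13.7 to 6.71 and 8.25 TPM (-0.98), ZNF544 from 33.2 and 29.4 to 23.1 and 18.9 TPM (-0.82) and ZNF333 from 2.99 and 2.97 to 1.71 and 1.91 TPM (-0.79). ZNF333 had risen at 8 h to 5.33 and 4.91 TPM from 2.44 and 2.83 TPM. The remaining members that fell at 24 h were ZNF524, ZNF580, ZNF69, ZNF417, ZNF587, ZNF551 and ZNF460. The calls of ZNF69, ZNF417, ZNF587, ZNF551 and ZNF460 were lost with ERCC scaling, where ZNF551 stood at 0.01 and ZNF460 at 0.17 in place of -0.34 and -0.19.

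Auxin in CNOT4-AID cells moved few members. At 8 h none was called by limma with Benjamini-Hochberg adjustment, where 0.241% of all genes rose and 0.0469% fell. The 8 h auxin libraries differed, with 30.6% of TPM in protein-coding genes in replicate 1 and 39.5% in replicate 2. The untreated pair had 38.1 and 37.8%, and the part of this in the 8 h result was not tested. At an unadjusted p under 0.05, 8 members rose and 5 fell, where 901 and 695 of 14921 genes did. At 24 h 20 members rose and 5 fell at an unadjusted p under 0.05, where 1681 and 1669 of 14921 genes did. The 20 thus lie near the share over all genes. After adjustment 6 rose and none fell at 24 h, where 2.09% and 2.42% of all genes did. ZNF260 went from 4.43 and 4.87 to 10.7 and 7.89 TPM (0.80 ± 0.13 SE, adjusted p = 0.00566) and ZNF480 from 3.64 and 4.17 to 7.73 and 7.57 TPM (0.78 ± 0.17 SE, adjusted p = 0.0192). ZNF888 (0.48, adjusted p = 0.0491), ZNF616 (0.43, adjusted p = 0.0160), ZNF507 (0.32) and ZNF587B (0.24) were the others. The untreated libraries of ZNF260 at 8 h stood at 7.41 and 7.36 TPM, above those at 24 h, and both 24 h auxin libraries lay above all 4. With ERCC scaling 5 members rose and none fell at 24 h, where 3.16% and 0.0134% of all genes did.

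Leaving out single libraries took the 6 to between 0 and 2. Against parental cells, the response of CNOT4-AID cells differed for no member at 8 or 24 h by limma, where 0.00670% and 0.00670% of all genes differed upward and downward at 8 h and 0.0402% and 0.0268% at 24 h. At an unadjusted p under 0.05 it was higher for 7 and lower for 1 member at 8 h, and for 25 and 4 at 24 h. Over all 14921 genes these were 595 and 466 at 8 h, and 1148 and 1176 at 24 h.

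The triptolide series gave the decay of the members. A slope, in log2 per hour, was fitted per line with edgeR on counts scaled to the 56 ERCC sequences in use, so that a fall of the whole mRNA pool is kept. In parental cells 169 of 180 members declined and none increased, where 48.3% and 0.744% of all genes did. At an unadjusted p under 0.05, 171 and 0 members did, where 8922 and 166 of 16806 genes did. The median slope was -0.22, a half-life of 4.50 h, against 15.1 h over protein-coding genes and 5.77 h over zinc finger genes of other chromosomes. In CNOT4-AID cells 156 members declined and none increased, where 85.6% and 0.143% of all genes did. At an unadjusted p under 0.05, 158 and 0 members did, where 14513 and 26 of 16806 genes did. The members' median half-life there was 3.16 h against 7.11 h over protein-coding genes. In CNOT1-AID cells 13 members declined and none increased, where 10.9% and 0.0655% of all genes did. At an unadjusted p under 0.05, 26 and 1 members did, where 3485 and 46 of 16806 genes did. The members' median half-life of 27.6 h lies beyond the 12 h followed.

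The slope was less steep in CNOT1-AID than in parental cells for 109 of the 180 members and steeper for none, where 18.8% and 0.940% of all genes were (edgeR, Benjamini-Hochberg). At an unadjusted p under 0.05 they were 129 and 0 members, where 4262 and 274 of 16806 genes were. With DESeq2 they were 106 and 0 members. With TMM scaling, which holds the median gene in place, 105 were less steep and 2 steeper, where 20.5% and 15.7% of all genes were. The median difference was 0.18, and off chromosome 19 it was 0.13, with 136 of 222 less steep. Of the 109, 108 were not near silent, and the other was ZNF793, whose CNOT1-AID counts of 0 to 4 carry no decay to be read. Slopes of near-silent loci in the tagged lines rest on at most 12 counts a library and are not described. Without the 12 h libraries 49 were less steep, and without the 0 h libraries 64. The shares of all genes for these 2 fits and for DESeq2 are not given.

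ZNF230, ZNF416, ZNF223 and ZNF627 differed most. ZNF230 had 187 and 218 counts at 0 h in parental cells, 21 and 16 at 3 h, 7 and 2 at 6 h and 1 and 1 at 12 h, a half-life of 1.15 h. In CNOT1-AID cells it had 136 and 122, 141 and 100, 103 and 108, then 189 and 170 counts, and the slope differed by 0.86 ± 0.11 (SE, edgeR adjusted p = 8.4e-06). ZNF230 was thus nearly gone by 6 h in parental cells and kept its counts throughout in CNOT1-AID cells. In CNOT4-AID cells it fell from 83 and 67 to 1 and 6 counts.

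ZNF416 had 234 and 383, 18 and 13, 6 and 9, then 5 and 2 counts in parental cells (half-life 1.37 h), and 384 and 373, 369 and 290, 400 and 337, then 441 and 385 in CNOT1-AID cells. The slope differed by 0.70 ± 0.12 (SE), and the CNOT4-AID counts of ZNF416 followed the parental ones, from 263 and 202 to 4 and 3. ZNF627 had 213 and 379 counts at 0 h and 13 and 8 at 12 h in parental cells (half-life 2.04 h) and 532 and 527, then 613 and 594 in CNOT1-AID cells (0.46 ± 0.09 SE). ZNF223 went from 110 and 131 to 4 and 0 counts in parental cells and from 81 and 79 to 88 and 65 in CNOT1-AID cells (0.59 ± 0.10 SE). ZNF574 had 1211 and 924 counts at 0 h and 34 and 24 at 12 h in parental cells (half-life 2.03 h), and 1636 and 1535, then 1745 and 1604 in CNOT1-AID cells.

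Not all members were short lived. ZNF358 had 289 and 216 counts at 0 h and 401 and 339 at 12 h in parental cells, with a slope of 0.00 (edgeR adjusted p = 0.946). ZNF69 had slopes of -0.10 in parental and -0.15 in CNOT1-AID cells. Both had fallen in CNOT1-AID cells with auxin.

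In CNOT4-AID cells the slope was steeper than in parental cells for 7 members and less steep for none (edgeR with Benjamini-Hochberg adjustment). Over all genes 0.845% and 0% were. At an unadjusted p under 0.05 it was steeper for 85 members and less steep for 2, where 7414 and 30 of 16806 genes were. The 85 thus lie near the share over all genes. The 7 members called were ZNF708, ZNF607, ZNF274, ZNF266, ZNF146, ZNF836 and ZNF585B. ZNF274, which is known to bring SETDB1 to other zinc finger genes, had 841 and 985, 468 and 461, 174 and 173, then 64 and 93 counts in parental cells and 358 and 328, 140 and 91, 40 and 53, then 15 and 8 in CNOT4-AID cells. Its half-life was 2.96 h in parental and 1.87 h in CNOT4-AID cells, with a slope difference of -0.20 (adjusted p = 0.0160). ZNF266 (-0.19, adjusted p = 0.0153) went from 607 and 904 to 78 and 92 counts in parental and from 269 and 248 to 12 and 14 counts in CNOT4-AID cells.

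This count rested on single libraries. It was 104 without CNOT4-AID 12 h replicate 1 and 0 without replicate 2 of that group, the library with the spike-in share of 3.92%, and it was 0 without CNOT4-AID 0 h replicate 1 or parental 12 h replicate 1. It was 35 without parental 6 h replicate 2, 32 without parental 0 h replicate 1 and 16 without CNOT4-AID 3 h replicate 1. DESeq2 called 42 and TMM scaling 0. In the main fit the slope difference was negative for 15877 of all 16806 genes. The shares of all genes under these alternatives are not given, so the counts are not read as particular to the members. For CNOT1-AID the count of 109 stood at 93 and 96 without parental 0 h replicate 1 and 2, and between 82 and 115 over all libraries left out.

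**Figure D4:**
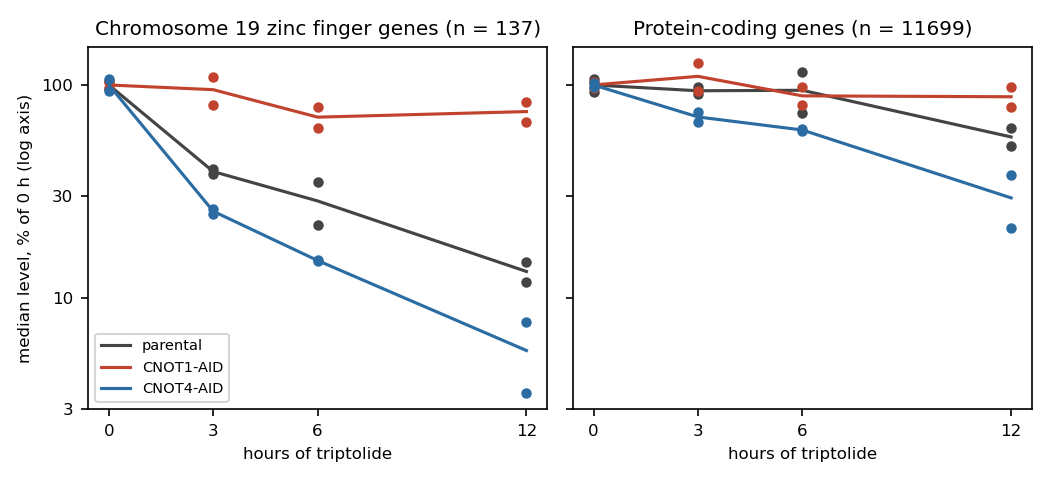
Median level left, as a percent of 0 h on the ERCC scale (log axis), at 0, 3, 6 and 12 h of triptolide in each library of the 3 lines (points, with lines through the mean of each pair), for 137 members with enough counts and for 11699 protein-coding genes. At 12 h the members stand at 14.8 and 11.8% in parental, 83.0 and 66.9% in CNOT1-AID and 7.71 and 3.58% in CNOT4-AID libraries, each under the protein-coding median of its library.

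Over the 137 members with at least 10 counts at 0 h in each line, the median left at 3 h was 40.3 and 38.0% in the parental libraries, 80.9 and 109% in CNOT1-AID and 24.8 and 26.2% in CNOT4-AID. At 6 h it was 22.1 and 34.9%, 62.5 and 78.7%, and 14.8 and 15.1%. For the members the 3 lines did not overlap at 3, 6 or 12 h. Protein-coding genes stood at 62.5 and 51.4%, 97.3 and 78.7%, and 37.7 and 21.2% at 12 h. The lower CNOT4-AID value at 12 h is that of replicate 2, with the spike-in share of 3.92%, whose part in it was not tested.

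Members that decayed fast in parental cells rose more with auxin in CNOT1-AID cells. Across 149 members not near silent, the parental slope and the 8 h response had Pearson's r = -0.567 and Spearman's rho = -0.561, and at 24 h -0.509 and -0.496. Over 11775 protein-coding genes the 8 h values were -0.55 and -0.583. Genes are not independent replicates and no p is given. Split into 3 groups by the parental slope, the fastest 49 members had a median half-life of 2.84 h and rose 2.98-fold in the median at 8 h (47 called higher). The middle 51, at 4.38 h, rose 2.40-fold (48 higher), and the slowest 49, at 7.09 h, 1.70-fold (37 higher and 3 lower). At 24 h the medians were 2.44-fold, 1.97-fold and 1.49-fold. All 3 that fell at 8 h were in the slowest group, as were 8 of the 11 at 24 h.

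**Figure D5:**
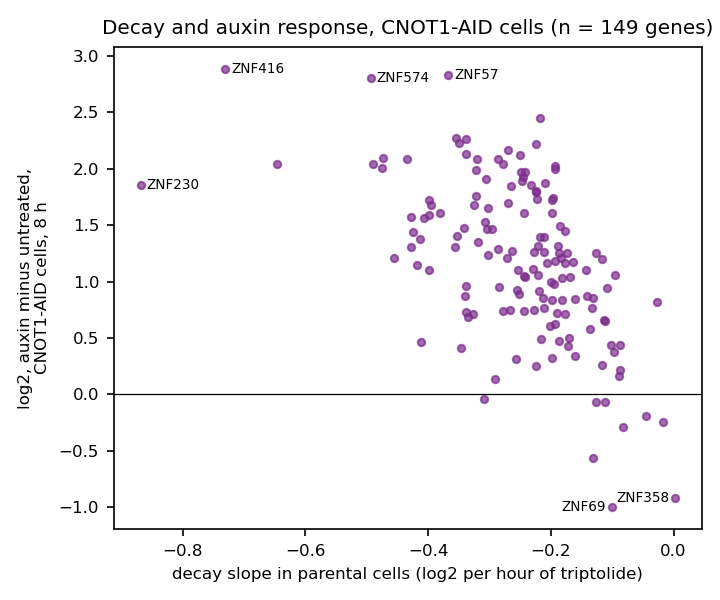
Decay slope in parental cells (x axis, log2 per hour of triptolide) against the log2 change with 8 h of auxin in CNOT1-AID cells (y axis) for the members not near silent, with 6 genes labelled. The points run from fast decay and a large rise (ZNF230, ZNF416) to slow decay and a fall (ZNF358, ZNF69), with r = -0.567 over 149 members.

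Length and finger number were only weakly correlated with these responses. The median member had a coding length of 1742 bases, a UTR after the stop codon of 1263 bases and 13 fingers, against 9 fingers off chromosome 19, and the near-silent loci had 12. Across the members not near silent, Pearson's r of coding length with the parental slope was -0.0136 and with the 8 h response 0.175, and that of finger number was 0.0244 and 0.174. The corresponding values for the length of the UTR after the stop codon were 0.0336 and -0.0518.

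Genes of the silencing pathway in which these proteins act were taken as a list of 25, all of which passed the filter. In CNOT1-AID cells with auxin 17 rose and 4 fell at 8 h, and 12 rose and 9 fell at 24 h, by limma. Over all genes 33.1% rose and 29.8% fell at 8 h, and 36.7% and 34.8% at 24 h, so the 9 of 25 that fell at 24 h are at the share over all genes. TRIM28, the co-repressor bound by KRAB domains, rose by 0.40 and 0.67 on the log2 scale at 8 and 24 h, and SETDB1 by 0.67 and 0.48. DNMT3B, a DNA methyltransferase that sets new marks, rose by 1.56 (2.96-fold) and 1.93, and ATF7IP, the partner of SETDB1, by 1.17 and 1.54. CBX5, a heterochromatin protein, fell by 1.00 and 2.08. DNMT1, which maintains DNA methylation, fell by 0.50 at 8 h, a call lost with ERCC scaling (-0.03), and by 1.15 at 24 h. In CNOT4-AID cells with auxin only HDAC1 was called, at 24 h, and it fell by 0.23.

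In the untreated lines 5 of the 25 were higher and 2 lower in CNOT1-AID, and 5 higher and 4 lower in CNOT4-AID cells, where 10.1% and 10.6% of all genes were higher and lower in CNOT1-AID and 10.5% and 9.74% in CNOT4-AID. DNMT1 was lower in untreated CNOT4-AID cells by 0.68 (1.60-fold, limma adjusted p = 7.2e-08) and differed by 0.01 in CNOT1-AID cells. TRIM28 differed by -0.07 and -0.01 and SETDB1 by 0.04 and 0.03, none of them called. Slopes were less steep in CNOT1-AID cells for 5 of the 25, near the 18.8% over all genes, and steeper for none (edgeR). SUV39H1 (0.30), DNMT3B (0.19), SETDB1 (0.16) and ATF7IP (0.15) were among the 5. In CNOT1-AID cells SUV39H1 had 21.3 and 21.8 TPM with auxin at 8 h against 15.3 and 15 TPM untreated. At 24 h SUV39H1 fell by 0.59. Whether any of these levels plays a part in the near-silent loci was not tested.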

How the data were processed

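Per the submitters' processing notes, STAR 2.5.1b, RSEM, featureCounts, SAMtools, DESeq2 and GRCh38 (hg38) were used. The values are TPM in the steady-state table and whole-number counts in the triptolide table, both as deposited by the authors. Libraries were made with a stranded ribosome-depletion kit, per the labels' protocols, and no library was left out. Steady state was fitted with limma 3.58.1 (trend, robust) on log2(TPM + 0.5) after TMM scaling, with 12 groups, 12 residual degrees of freedom and 14921 genes of at least 1 TPM in 2 libraries. Folds on that scale understate low genes. Counts were fitted with edgeR 4.0.16 (quasi-likelihood, R 4.3.3) over 16806 genes, with slopes scaled to 56 of 92 ERCC sequences (mean of at least 10 counts, 18 residual degrees of freedom) and 0 h contrasts to TMM. P-values were Benjamini-Hochberg adjusted over all genes, with 0.05 as the threshold. Coordinates and names are GENCODE 29, promoters RefSeq GRCh38.p14, and fingers were counted by a C2H2 pattern in translated transcripts. Genes named are those with the largest changes past the threshold, 1 TPM or CPM on average and no overlap between groups, up to 4 each way per comparison, besides the near-silent loci, the 5 highest members and named partners. The members and lists were chosen with earlier results of these data known. The scripts were tested on simulated data. Alternatives were other scalings, pseudocounts, filters, tools, time subsets, a replicate block and single libraries left out.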

Additional observations from a re-analysis of the deposited data

Results flagged for a closer look

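Over 143 groups of 4 untreated libraries of named members, 5 were flagged for a library far from the other 3. Only groups that reached 1 TPM could be flagged, and the 143 include lower ones, so no chance rate is set beside the 5. The flagged libraries were ZNF428 at 11.5 TPM in a CNOT4-AID library, ZNF57 at 7.39 TPM and ZNF571 at 17.1 TPM in a parental library, ZNF69 at 2.67 TPM in a CNOT1-AID library and ZNF787 at 25.7 TPM in a parental library. The response of members to auxin differed between CNOT1-AID and parental cells by limma's test of the difference itself, higher for 127 and lower for 3 at 8 h, and higher for 113 and lower for 8 at 24 h.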

How the results depend on the processing

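Without scaling ZNF580 (-0.053) and ZNF581 (-0.067) turned lower in untreated CNOT4-AID cells, and in CNOT1-AID cells with auxin at 24 h ZNF460 turned higher (0.17 with ERCC scaling, 0.060 without scaling), as did ZNF551 with ERCC scaling (0.0092). No other named result changed its direction under the alternatives run. In the following counts of members the first value is that of the report. The shares of all genes are not given beside them, so these counts are not read as particular to the members. Untreated CNOT1-AID higher: 2, and 1 with ERCC scaling, without scaling, and with the 8 h or the 24 h libraries alone. Untreated CNOT4-AID higher: 3, against 0 without scaling, 0 with 8 h alone and 5 with 24 h alone. CNOT1-AID auxin 24 h lower: 11, and 6 with ERCC or without scaling. CNOT4-AID auxin 24 h higher: 6, against 1 without scaling and 3 without a filter, and lower: 0, against 1 with median-of-ratios scaling, with a mean of at least 1 TPM, or with the filter in each line, which was chosen after seeing the data. Response of CNOT1-AID against parental, lower: 3 at 8 h against 1 with ERCC scaling, and 8 at 24 h against 4 with ERCC and 5 without scaling. Slope, CNOT1-AID less steep: 109, against 49 without 12 h and 64 without 0 h, and steeper: 0, against 2 with TMM. Slope, CNOT4-AID steeper: 7, against 0 with TMM, 35 without a filter, 42 with DESeq2, and 0 without 12 h or without 0 h. At 0 h, CNOT1-AID higher: 16 against 5 with ERCC scaling, and CNOT4-AID higher: 1 against 0. Near silent in CNOT1-AID: 19 against 12 with a limit of 0.05 TPM.

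Same-numbered libraries deviated together by correlations of -0.221 to 0.201 in steady state and -0.223 to 0.0758 with triptolide, so the numbers do not pair them. With the replicate number as a block, 3 members in place of 6 rose in CNOT4-AID at 24 h and 2 in place of 7 had a steeper CNOT4-AID slope.

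Leaving out single libraries gave these ranges, which stand without the shares of all genes. Untreated CNOT1-AID: 1 to 3 higher and 108 to 119 lower; CNOT4-AID: 1 to 4 and 106 to 115. Auxin in CNOT1-AID: 125 to 131 higher and 3 to 4 lower at 8 h, 110 to 115 and 9 to 12 at 24 h. CNOT4-AID at 24 h: 0 to 2 higher. Response against parental: 121 to 125 and 3 to 4, then 105 to 111 and 7 to 9, and for CNOT4-AID at 24 h 0 to 1 higher. Slope: 82 to 115 less steep for CNOT1-AID, 0 to 1 less steep and 0 to 104 steeper for CNOT4-AID. At 0 h: 5 to 32 higher and 65 to 90 lower for CNOT1-AID, 1 to 13 and 72 to 118 for CNOT4-AID. Leaving out every library of 1 replicate number gave 19 to 20 near-silent loci, 17 to 18 in each tagged line. Of 1796 values for single genes, 1607 kept their call and direction, 184 lost the call and 5 changed direction. The causes were not tested. TPM gives no depth, and 0 counts in a library allow up to 3.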
